A study of Bos taurus with 6 samples.

Results

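The miR-2284 and miR-2285 families are large groups of microRNAs (miRNAs) that are known from cattle and other ruminants. Their members were taken by name: every mature miRNA of the deposited table whose name begins with bta-miR-2284 or bta-miR-2285, with any letter or arm suffix and also with no read in any library. This gave 148 members of 1028 miRNAs, 31 of the miR-2284 family and 117 of the miR-2285 family. The miRNAs were measured by small RNA sequencing of extracellular vesicles (EVs), the membrane-enclosed particles that cells release, from the conditioned medium of bovine (Bos taurus) oviductal organoids. The organoids are cultures of oviduct epithelium, grown from oviducts of slaughterhouse animals in diestrus, with 2 animals pooled for each replicate. All of them were cultured for 14 days, moved to a synthetic matrix and held for 24 h at 37 °C. One group then stayed at 37 °C for 24 h (thermoneutral, 3 libraries, replicates A, B and C) and the other was kept at 42 °C for 24 h (heat stress, HS, 3 libraries, replicates A, B and C). The same oviducts were represented at both temperatures, but the labels do not tie libraries to animals, so the p-values measure the spread between these pools.

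A miRNA is a short RNA that guides a protein complex to messenger RNAs with a matching site, mostly in their untranslated ends, and lowers their output. The pairing rests largely on a stretch near its start, the seed. Most miRNAs of vertebrate tissues belong to old families that many species share. The miR-2284 and miR-2285 families expanded in ruminants into many gene copies, and in such a family the reads of near-identical copies can be hard to assign to one name. EVs carry miRNAs out of the cell, and those of the oviduct meet the gametes and the early embryo.

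The value of each miRNA was its reads as counts per 1000000 reads after TMM scaling (CPM), and the reads behind it could be recovered. The libraries held between 31640 and 213877 miRNA reads. At 42 °C 1 read was worth 5.53 CPM in replicate B but 28.7 CPM in replicate C. The single miRNA bta-miR-1246 took 25% to 71.8% of the reads of a library. The labelled epithelium was checked by the miR-200 family and bta-miR-205: 6 of 6 such miRNAs had reads, and together they made up 14615 to 53185 reads per 1000000 reads other than bta-miR-1246. Lists typical of erythroid cells, liver, leukocytes, stroma and endothelium also had reads for every listed miRNA. In reads per 1000000 other than bta-miR-1246, the erythroid list was at 34468 to 91216 at 37 °C and 31241 to 201058 at 42 °C. The liver list, bta-miR-122 alone, was at 35423 to 48704 and 18094 to 111446. Both thus reached above the highest value of the epithelial list. The stroma list ranged from 5569 to 21287 and the endothelium list from 2546 to 11251. Which cells these EVs came from was not tested. The leukocyte list was at 373 to 935 reads per 1000000 at 37 °C and at 3421 to 17381 at 42 °C, on the same scale.

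Few members of either family were seen in the EVs. A read in at least 1 library was found for 15 of the 148 members (10.1%), and 133 had none. The 15 were 3 of the 31 miR-2284 members and 12 of the 117 miR-2285 members. Among all the other miRNAs listed, 326 of 880 (37.0%) had a read. Among the bovine miRNAs that follow in the numbering, from miR-2286 up to miR-2999 (here the neighbour miRNAs), the share was 10.2% (27 of 265), and it was 17.5% (36 of 206) among those from miR-3000 on. The low-numbered miRNAs, those before miR-2284 with let-7, had a read for 64.3% (263 of 409). The share of the miR-2284 and miR-2285 families was thus close to that of the neighbour miRNAs and below that of the low-numbered ones, by counts alone.

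**Figure D1:**
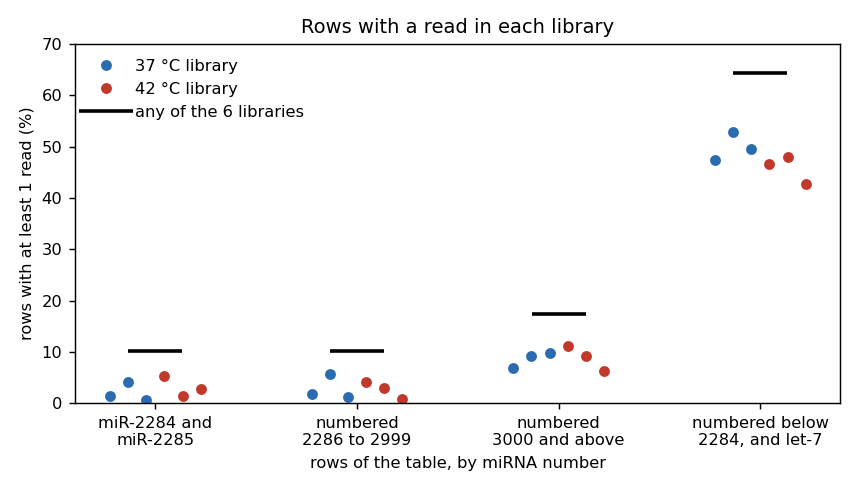
Percentage of rows with at least 1 read, by group of miRNAs from left to right (both families, the neighbour miRNAs, those from miR-3000 on and the low-numbered ones), with a point for each library at 37 °C or 42 °C and a black bar for any of the 6 libraries. The bar of the miR-2284 and miR-2285 families stands at 10.1%, near the 10.2% of the neighbour miRNAs and below the 64.3% of the low-numbered ones.

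The reads were as few as the members. Over the 6 libraries the members had 170 of 712175 miRNA reads (0.0239%), against 416 reads (0.0584%) for the neighbour miRNAs. A single member, bta-miR-2284x, held 122 of the 170 reads (71.8%), and the other 147 members shared 48 reads. None of the 12 rows with an arm suffix had a read. Of the 15 members, 7 had 3 or more reads, 2 had 10 or more, and 5 rested on a single read. A member with no read is not shown to be absent: 3 reads over the 6 libraries, the limit that a count of 0 allows, correspond to 4.25 CPM when reads are pooled over libraries by their TMM-scaled depth, while bta-miR-2284x stood at 173 CPM on the same pooled scale, 40.7 times that limit. Such limits and all intervals of reads cover counting error only.

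Between libraries the members differed in number and in reads. At 37 °C, 2 members had a read in replicate A, 6 in replicate B and 1 in replicate C, and at 42 °C the numbers were 8, 2 and 4. These members had 13, 49 and 21 reads at 37 °C and 47, 32 and 8 reads at 42 °C. Replicate B at 37 °C and replicate A at 42 °C stood highest in both counts, although replicate B at 42 °C was the deepest library.

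**Figure D2:**
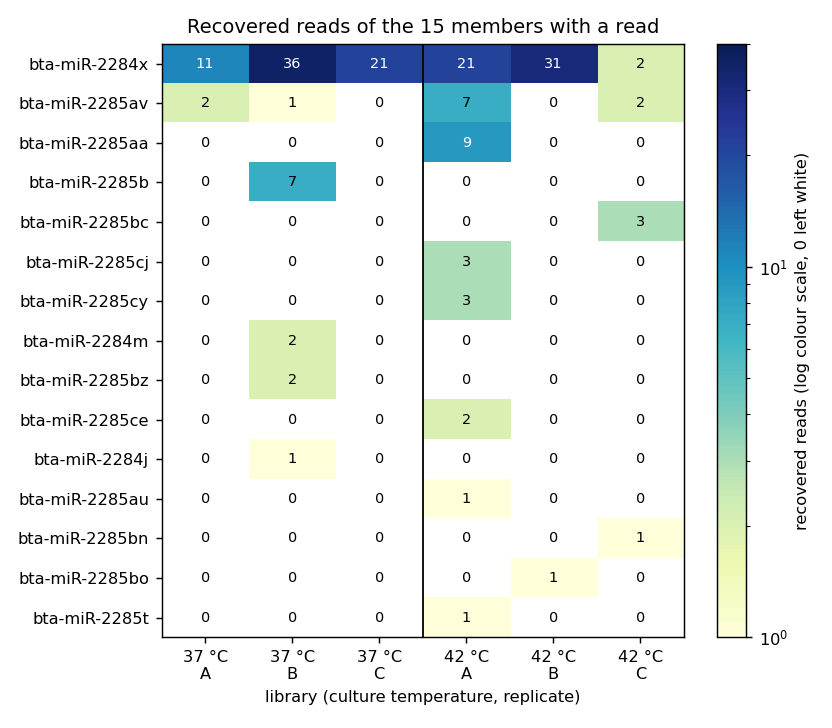
Reads of each of the 15 members with a read (rows) in each of the 6 libraries (columns), written in the cells and shown by colour on a log scale, with 0 left white. The row of bta-miR-2284x is filled in all 6 libraries, and most other rows have 1 filled cell, in replicate B at 37 °C or replicate A at 42 °C.

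bta-miR-2284x was the one member with reads in all 6 libraries. Its reads in replicates A, B and C were 11, 36 and 21 at 37 °C, against 21, 31 and 2 at 42 °C. In CPM these are 187, 211 and 155 at 37 °C and 167, 172 and 57.4 at 42 °C. Replicate C at 42 °C, the library where 1 read counts most, was low, and the other 5 libraries lay close together, with the groups overlapping.

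The counting error of these levels was wide. The exact Poisson interval at 95% ran from 148 to 293 CPM in replicate B at 37 °C, where bta-miR-2284x had the most reads, and from 6.96 to 207.5 CPM in replicate C at 42 °C. The interval of that low library thus reached the CPM value of each of the other libraries except replicate B at 37 °C. In order of level among the miRNAs with a read in each library, bta-miR-2284x was at rank 98 of 215, 99 of 256 and 110 of 227 at 37 °C. At 42 °C it was at rank 96 of 233, 105 of 225 and 142 of 194. By the mean over libraries it was at rank 115 of the 341 miRNAs with a read. It thus stood above the middle of the detected miRNAs by the mean and in each library except replicate C at 42 °C. The next member, bta-miR-2285av, had 12 reads in all against the 122 of bta-miR-2284x, or 10.2 times fewer.

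**Figure D3:**
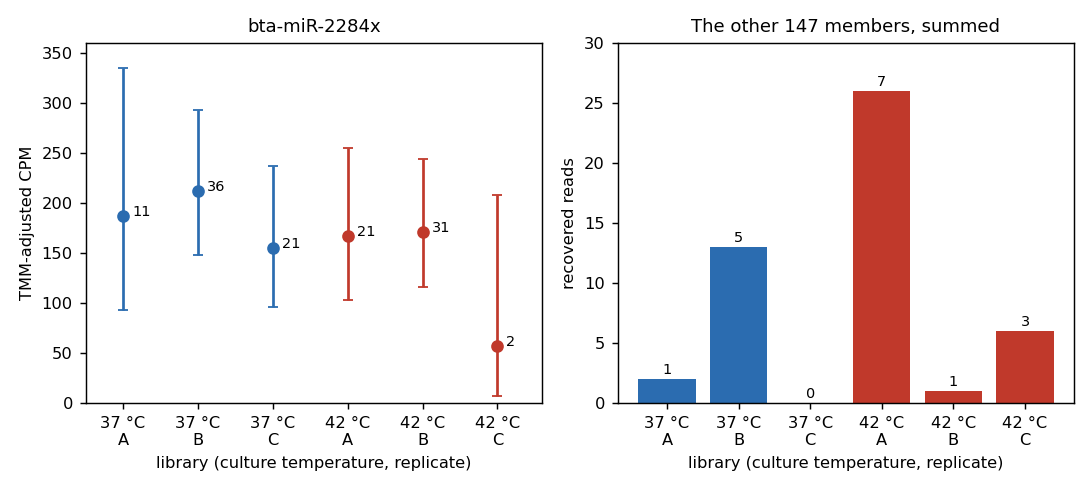
Left, CPM of bta-miR-2284x in each library with its exact Poisson 95% interval and its reads written beside the point. Right, the summed reads of the other 147 members in each library, with the number of those members that had a read above the bar: replicate A at 42 °C is highest with 26 reads of 7 members, and replicate C at 37 °C has 0.

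The mean of bta-miR-2284x was 185 ± 28.2 CPM at 37 °C and 132 ± 64.6 CPM at 42 °C (SD, n = 3 each). Its log2 fold change, 42 °C minus 37 °C, was -0.58 (SE 0.63, 95% interval -1.94 to 0.78) by limma on log2(CPM + 10), with an adjusted p of 0.67, so no difference beyond the spread between libraries was found. The interval runs from a fold of 0.261 to a fold of 1.72, which leaves room for a change of either direction. Without replicate C at 42 °C the log2 fold change was -0.11 (adjusted p = 0.95 by limma). Counted in reads pooled in the same way, the ratio of 42 °C to 37 °C was 0.848, with an exact interval of 0.582 to 1.23. In EVs taken in bulk, the number of vesicles with the miRNA and the copies per vesicle cannot be told apart.

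The size of that change depended on the scaling, and its sign did not. With each library scaled to the same sum it was -1.18 on the log2 scale, where the median of all tested miRNAs was itself -0.57. With bta-miR-1246 left out of the sum it was -1.06, with a median of -0.43 over all. Under both scalings bta-miR-2284x lay below the median of all by about the amount of the TMM-scaled comparison.

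The spread of bta-miR-2284x within groups was below the median for miRNAs of its level. Its within-group SD was 0.60 on the log2 scale, against a median of 0.87 over the 251 miRNAs tested, of which 27.1% were lower. Among the 20 tested miRNAs nearest to it in mean level, 102 to 213 CPM, the within-group SD ranged from 0.32 to 2.04 with a median of 0.81, and 4 were below that of bta-miR-2284x.

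bta-miR-2285av was the other member with reads at both temperatures. Its reads in replicates A, B and C were 2, 1 and 0 at 37 °C, against 7, 0 and 2 at 42 °C. This is 34.0, 5.87 and 0 CPM at 37 °C and 55.6, 0 and 57.4 CPM at 42 °C. The highest values were both at 42 °C, but that group also held a library with no read, and the groups overlapped. The means were 13.3 ± 18.2 and 37.7 ± 32.6 CPM (SD, n = 3 each), and the log2 fold change was 0.89 (SE 0.94, 95% interval -1.15 to 2.93, adjusted p = 0.66 by limma). The pooled ratio of reads, 42 °C to 37 °C, was 3.20 with an exact interval of 0.799 to 18.4. Single libraries moved the log2 fold change by over 1.5 times. It was 1.80 (adjusted p = 0.34, limma) without replicate B at 42 °C and 1.49 without replicate A at 37 °C. It was 0.42 without replicate C at either temperature and 0.44 without replicate A at 42 °C. Under none of these was bta-miR-2285av called.

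The remaining 13 members with reads were each seen in 1 library. Of these, 4 were in a library at 37 °C and 9 in a library at 42 °C. All 4 of the former came from replicate B at 37 °C, and without that library no member was found at 37 °C alone. Of the 9 at 42 °C, 6 came from replicate A, and without that library 3 remained. Most of the members found at 42 °C alone thus came from 1 library. The same libraries stood highest among all other miRNAs seen in 1 library: 21 of these were in replicate B at 37 °C and 20 in replicate A at 42 °C, with 37 in all at each temperature. Among the neighbour miRNAs 12 were in 1 library at 37 °C and 8 in 1 library at 42 °C. The concentration in these libraries was thus also seen outside both families.

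Replicate A at 42 °C held 19 reads of the 6 members seen in it alone. bta-miR-2285aa led them with 9 reads (71.5 CPM), the most of any member seen in a single library. bta-miR-2285cj and bta-miR-2285cy had 3 reads each (23.8 CPM), bta-miR-2285ce had 2 reads, and bta-miR-2285au and bta-miR-2285t had 1 read each. The miR-2284 family was present in that library through bta-miR-2284x alone, and all the members seen in it alone were of the miR-2285 family.

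Replicate B at 37 °C held 12 reads of 4 members seen in it alone. They were led by bta-miR-2285b with 7 reads (41.1 CPM). bta-miR-2284m and bta-miR-2285bz had 2 reads each (11.7 CPM) and bta-miR-2284j had 1 read (5.87 CPM). bta-miR-2284m and bta-miR-2284j were the only members of the miR-2284 family with a read besides bta-miR-2284x.

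The other libraries added 3 members. Replicate C at 42 °C held 3 reads of bta-miR-2285bc, worth 86.2 CPM, and 1 read of bta-miR-2285bn, worth 28.7 CPM. In replicate B at 42 °C bta-miR-2285bo had 1 read, worth 5.53 CPM. The value of bta-miR-2285bc in CPM was thus above the 71.5 CPM of bta-miR-2285aa although it rested on 3 reads against 9, since 1 read weighs more in that library. Replicates A and C at 37 °C had no member of their own.

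Between the temperatures, 5 members had a group mean of 10 CPM or more at either temperature and were tested among 251 miRNAs, and 143 did not. None of the 5 was called (adjusted p under 0.05 and at least 2-fold, limma), against 6 calls (2.39%) among all tested. At an unadjusted p under 0.05 it was 0 of the 5 against 44 of 251 (17.5%). The libraries of the groups did not overlap for 0 of the 5 against 61 of 251 (24.3%). Only bta-miR-2284x could have separated, since each other tested member had no read in at least 1 library of each temperature. With edgeR on the recovered reads none of the 5 was called (4.38% of 251 over all), and with DESeq2 none of those given an adjusted p (9.19% of 185 over all). With no limit on low values all 15 members were tested and none was called (1.47% of 341 over all). The 13 members with reads in 1 library had little room to be called, since that library set both their change and its spread. Among the 5, this held for bta-miR-2285aa, bta-miR-2285b and bta-miR-2285bc. The counts of calls thus do not show that these members lack a response.

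The 3 tested members with reads in 1 library had wide intervals. For bta-miR-2285aa, with 9 reads in replicate A at 42 °C and none elsewhere, the log2 fold change was 1.01 (SE 0.85, adjusted p = 0.60 by limma). bta-miR-2285bc, with 3 reads in replicate C at 42 °C, had 1.09 (SE 0.88, adjusted p = 0.59 by limma). bta-miR-2285b, with 7 reads in replicate B at 37 °C, had -0.78 (SE 0.76, adjusted p = 0.64 by limma). Each of these fitted changes depends on the pseudocount and is no bound. With a library left out they ran from 1.01 to 1.51 for bta-miR-2285aa, from 1.09 to 1.63 for bta-miR-2285bc and from -1.18 to -0.78 for bta-miR-2285b. None was called. The library that held all reads of a member could not be left out, since the member then fell out of the fit. Leaving out a library with no read of it can only keep its change or make it larger in size. The pseudocount and the model moved the fitted changes further. With pseudocount 50 and with edgeR these changes were 0.43 and 4.75 for bta-miR-2285aa and 0.48 and 4.18 for bta-miR-2285bc. For bta-miR-2285b they were -0.29 and -4.025. bta-miR-2285bn, whose mean of 9.57 CPM at 42 °C came from 1 read, fell just outside the limit of 10 CPM.

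**Figure D4:**
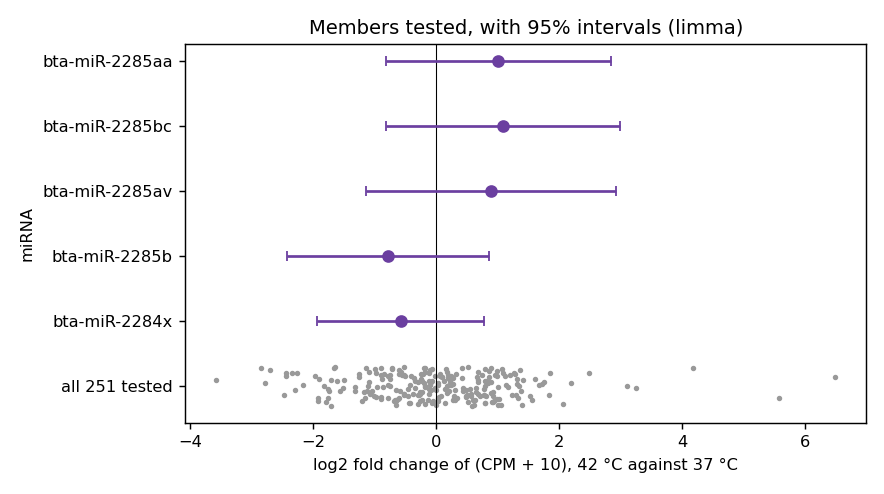
Log2 fold changes (42 °C minus 37 °C, limma on log2(CPM + 10)) of the 251 tested miRNAs in grey and of the 5 tested members with their 95% intervals. All 5 intervals cross 0. The height of the grey points within their band has no meaning.

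The summed reads of all 148 members did not separate the temperatures. They made up 411, 326 and 150 reads per 1000000 miRNA reads at 37 °C (A, B and C) and 453, 150 and 110 at 42 °C. The means were 296 ± 133 and 237 ± 187 (SD, n = 3 each). The exact 95% intervals of replicate C at 37 °C (92.8 to 229) and replicate B at 42 °C (102 to 211) lay within the same range. Those of replicate B at 37 °C (241 to 431) and replicate A at 42 °C (333 to 602) lay above both. Libraries of the same temperature thus differed beyond counting error. In the TMM-scaled values the order of the means was the other way, 221 ± 66.3 CPM at 37 °C and 260 ± 102 CPM at 42 °C. With all 6 libraries the difference between the groups was smaller than the spread between libraries on either scale. In reads, the log2 ratio of the means, 42 °C to 37 °C, was -0.32, but single libraries moved it: it was -1.19 without replicate A and 0.03 without replicate C at 42 °C. It was also close to 0 without replicate A at 37 °C, and -0.63 without replicate C at 37 °C.

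Without bta-miR-2284x the members made up 63.2, 86.5 and 0 reads per 1000000 at 37 °C and 250.5, 4.68 and 82.7 at 42 °C. The means were 49.9 ± 44.8 and 113 ± 126 (SD, n = 3 each), and replicate A at 42 °C stood above all others. Without that library the mean at 42 °C was 43.7. At 37 °C bta-miR-2284x held 84.6% (A), 73.5% (B) and 100% (C) of the members' reads. At 42 °C it held 44.7% (A), 96.9% (B) and 25% (C), so the groups overlapped.

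The place of the members among other genes was read from the RefSeq gene table of the assembly ARS-UCD2.0, for names and neighbours only. It matched 140 members to 191 gene entries on 30 chromosomes or scaffolds, and 13 of the 15 members with reads lay on 9 of them. A single entry was found for 115 members, of which 12 had reads (10.4%), and several entries for 25 members, of which 1 had reads (4%). The 3 members with the most entries, bta-miR-2284y, bta-miR-2284z and bta-miR-2285n with 7 each, had no read in any library. More gene entries for a name did not go with more reads in these counts. A single entry need not mean a single copy, since bta-miR-2285aq was matched to MIR2285AQ-2 alone and bta-miR-2285bi to MIR2285BI-1 alone.

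Many entries lay inside protein-coding genes. This held for at least 1 entry of 8 of the 13 matched members with reads (61.5%) and of 89 of the 127 without (70.1%). Among members with a single entry it was 7 of 12 with reads (58.3%) and 66 of 103 without (64.1%). MIR2284X lay within TIAM1, which encodes an exchange factor that activates the GTPase Rac. The neighbouring entry MIR2284I belongs to bta-miR-2284i, which had no read in any library. bta-miR-2285aa lay within ERCC3, a helicase subunit of a general transcription and DNA repair factor, bta-miR-2285bc within ORC1, a subunit of the complex that marks origins of DNA replication, and bta-miR-2285t within FCGR2B, an inhibitory receptor for antibodies on immune cells. For bta-miR-2285b one of 2 entries lay within FAR1, an enzyme of fatty alcohol synthesis, and the other between ZNF644 and BARHL2.

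The 3 remaining hosts were DNER for bta-miR-2284m, PHACTR3 for bta-miR-2285bz and GRIK4, a glutamate receptor subunit, for bta-miR-2284j. MIR2284J overlapped MIR2312, and bta-miR-2312 had no read. MIR2285AV overlapped MIR2285O-1, one of 5 entries of bta-miR-2285o, between RUBCNL and LRCH1. bta-miR-2285o had no read in any library, while 12 reads were counted under the name bta-miR-2285av. Whether these reads came from that place was not tested. The assignment of reads between such overlapping or near-identical members is uncertain, since the table used here gives neither strand nor sequence.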

How the data were processed

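Small RNA of EVs was sequenced in 6 libraries, 3 at 37 °C and 3 at 42 °C. Per the methods, the authors kept reads with a quality score above 30 and at least 15 bases, annotated them against miRBase release 22 in CLC Genomics Workbench 21 with default parameters, and deposited a signal per miRNA that they call TMM-adjusted CPM. The settings for reads that match several miRNAs are not given in the sources used here. The submitters' processing notes also name bcl2fastq, Bowtie2 2.2.2, DESeq2 and ARS-UCD1.2, without roles.

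Within a tolerance of 0.01, 100% of the values above 0 in each library were whole multiples of the lowest, which gave the reads (31640 to 213877 per library). The main test was limma 3.58.1 (R 4.3.3, intensity trend) on the log2 of CPM plus 10. It covered the 251 miRNAs whose mean reached 10 CPM at 37 °C or 42 °C, with Benjamini-Hochberg adjustment over all of them. On this scale the change of a low miRNA is understated. The study's own model was a negative binomial GLM on counts, so edgeR 4.0.16 (quasi-likelihood) and DESeq2 1.42.0 on the recovered reads were alternatives. Every member with a read was named, with values per library from a mean of 10 CPM in a group or 3 reads over all libraries. The members and lists were chosen with earlier results of these data known. Mature sequences and seeds were not analysed here.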

Additional observations from a re-analysis of the deposited data

How the results depend on the processing

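None of the tested members was called under any of the 16 alternatives (pseudocount 1 or 50, no limit or a limit of 50 CPM, other scalings, no trend, edgeR, DESeq2, the replicate block and each library left out in turn). Not every alternative could call every member. For a member with reads in 1 library, that library set both the change and its spread, so limma could hardly call it under any setting. DESeq2 gave no adjusted p for bta-miR-2285aa, bta-miR-2285b and bta-miR-2285bc, and with the limit of 50 CPM bta-miR-2284x alone was tested. bta-miR-2284x kept its sign under all 16, with log2 fold changes from -1.18 to -0.11 and adjusted p from 0.49 to 0.95. With the replicate block its value was -0.58 (adjusted p = 0.74, limma), and 0 members were called. Libraries of the same letter did not resemble each other more: their deviations from the group means correlated at -0.06 (A), 0.03 (B) and -0.06 (C). For unlike letters the correlations ran from -0.11 to 0.16. With 3 libraries per group this cannot show whether the letters mark the same animals. Over all miRNAs the calls moved from 6 to 15 with the block, 20 with each library scaled to the same sum, 15 with that sum taken without bta-miR-1246, 10 with a limit of 50 CPM and 10 without the trend. They were 11 with edgeR and 17 with DESeq2, and 1 to 9 with a library left out (1 without replicate B and 3 without replicate C at 37 °C).

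The count of members with a read was 7 with at least 3 reads required, 10 with at least 2 reads in a library, and 9 (without replicate A at 42 °C) to 15 with a library left out. Members found at 37 °C alone numbered 0 to 4 and at 42 °C alone 3 to 9 with a library left out, an alternative chosen after seeing the data. The log2 ratio of the summed share, 42 °C to 37 °C, was -0.32, and 1.17 without bta-miR-2284x. It ran from -1.19 (without replicate A at 42 °C) to 0.03 (without replicate C at 42 °C) with a library left out. Reads limit these results: 3 reads were worth 16.6 to 86.2 CPM in a library, so most members could not be followed between temperatures.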

Other observations

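Members with several reads, all in 1 library, were compared with other miRNAs of like read number, a comparison chosen after the values were seen. Of the 3 members with 7 to 12 reads over the 6 libraries, 2 had all of them in 1 library, bta-miR-2285aa and bta-miR-2285b. Of the 31 other miRNAs with 7 to 12 reads, 4 did (12.9%), namely bta-miR-11986b with 7 reads in replicate A at 42 °C, bta-miR-2346 with 11 and bta-miR-3120 with 8 in replicate B at 42 °C, and bta-miR-2350 with 7 in replicate B at 37 °C. By group, 2 of 4 neighbour miRNAs (from miR-2286 to miR-2999) and 2 of 5 from miR-3000 on did, so the trait was also seen outside both families. None of the 22 low-numbered miRNAs (before miR-2284, with let-7) with 7 to 12 reads did. Over all read numbers, 13 of 15 members (86.7%), 20 of 27 neighbour miRNAs (74.1%), 15 of 36 from miR-3000 on (41.7%) and 39 of 263 low-numbered miRNAs (14.8%) had reads in 1 library only. These are counts, with no test.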
